A study of Mus musculus with 6 samples.

Results

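Potassium channel genes were taken as the rows of the authors' deposited comparison whose gene name begins with Kcn followed by a letter, leaving out Kcnj13 and Kcne2. The rule gave 83 rows under 82 names, of 17385 listed genes. Kcnb2 has a second ID, ENSMUSG00000090498, which has no match in GENCODE M21. All members but Kcnrg, which encodes a channel regulator, are pore-forming, modifier or auxiliary subunits of 20 named subfamilies. The 2 genes left out both rose in sATF6-KI whole hippocampus by the authors' deposited table, Kcne2 by 1.36-fold and Kcnj13 by 1.34-fold. Their log2 fold changes, 0.44 and 0.42, lie within the range of the choroid plexus markers read below, 0.35 to 1.07. A link between the 2 was not tested.

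Messenger RNA was measured by sequencing in whole hippocampus of 2-month-old C57BL/6 mice, 3 samples labelled sATF6-KI and 3 labelled control. The sATF6-KI mice carried Rosa26-sATF6-MER together with Emx1-Cre. Control mice carried Emx1-Cre alone, so both groups carry the recombinase. Emx1-Cre acts in the lineage of forebrain excitatory neurons and of some glia. MER is a mutated hormone-binding domain of the estrogen receptor, through which such fusions are usually switched on by a ligand. Of ligand treatment nothing is given in the sources used here. ATF6 is anchored in the membrane of the endoplasmic reticulum (ER), and protein folding stress frees its cytosolic domain to enter the nucleus and activate chaperone genes. In the authors' deposited table Esr1, to which MER reads could be counted, had a log2 fold change of 6.09. The hippocampal markers Prox1 of dentate granule cells, Fibcd1 and Wfs1 of CA1 had a baseMean (the authors' mean normalized expression over all libraries) of 5769, 6478 and 5115. The columns of values per library carry names that match no sample label, so no value per mouse is given and the depth per sample is unknown here.

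Potassium channels set the resting potential of neurons, end each action potential and shape the pause after it. Most are tetramers of pore-forming subunits, which fold and assemble in the ER and may join with cytosolic or membrane auxiliary subunits. In hippocampal pyramidal cells the Kv4 subfamily carries the A-type current of dendrites, Kv7 the M-current, and small-conductance channels part of the afterhyperpolarization.

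Calls rest on DESeq2's Wald test as the authors ran it, with p adjusted over all listed genes and a threshold of 0.05. Of the 83 members, 9 were called in the authors' deposited table, 1 higher and 8 lower in sATF6-KI. Of all listed genes 5.34% were called, 3.41% higher and 1.93% lower. The members that fell were Kcnd2, Kcng2, Kcns2, Kcnq5, Kcnh3, Kcnab1, Kcnip4 and Kcnn2. The 8 decreases lay in 8 subfamilies, with 1 member each. They were small, from -0.24 to -0.40 (log2) by the authors' deposited table. Every one of the 9 has a baseMean of at least 1118. Whole tissue was sequenced, so fewer cells of a type and less RNA per cell cannot be told apart.

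Level and direction went together in the table as a whole. Among members with a baseMean of at least 1000, a limit chosen after seeing the data, 1 of 41 was higher and 8 were lower, and of all listed genes at that level 8.26% were called, 4.04% higher and 4.22% lower. None of the 42 members under that level was called by DESeq2, where an unadjusted p under 0.05 was met by 1 on the higher and 3 on the lower side. Of all listed genes under that level 3.34% were called, 2.97% higher and 0.368% lower, and an unadjusted p under 0.05 was met by 8.09% on the higher and 2.22% on the lower side. The median log2 fold change was -0.03 for the 41 members and -0.04 for all 7056 genes at that level. For the 42 members and all 10329 genes under it the medians were 0.02 and 0.06. Over all 83 members the median was -0.02, against 0.00 over all listed genes. A value below 0 was had by 45 members, 54.22%, against 48.75% of all listed genes. With a baseMean of at least 1000 these shares were 63.41% and 62.57%. At an unadjusted p under 0.05 there were 3 members on the higher and 16 on the lower side, where all listed genes gave 8.2% and 7.59%. With a baseMean of at least 1000 that p was met by 2 members on the higher and 13 on the lower side. Of all 7056 genes at that level, 589 met it on the higher and 1090 on the lower side. Among called members 4 also differed by 1.2-fold or more, 1 higher and 3 (Kcng2, Kcnq5 and Kcns2) lower, and 3.85% of all listed genes passed both, 3.09% higher and 0.765% lower.

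**Figure D1:**
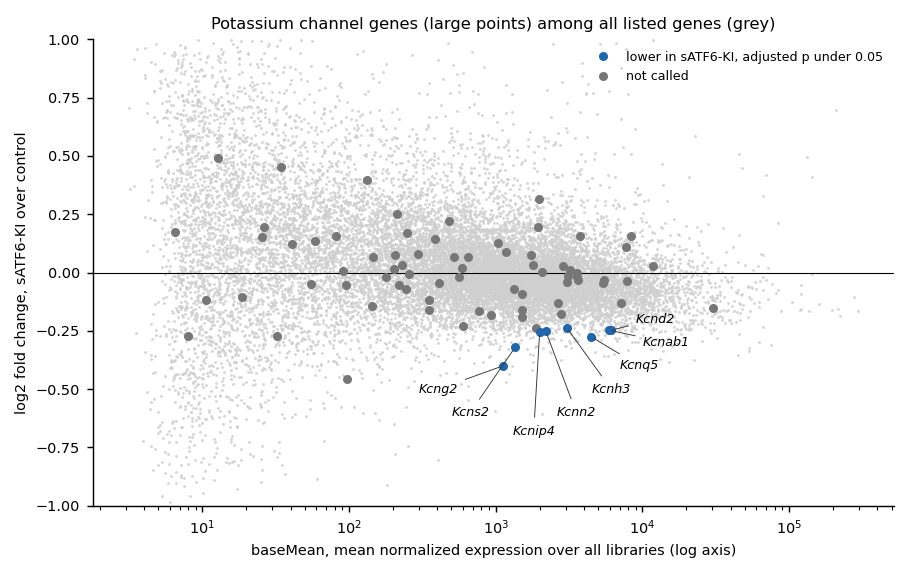
Log2 fold change, sATF6-KI over control, against baseMean on a log axis, for 79 potassium channel rows (large points, coloured by call) and the listed genes that are no members (grey; 295 of them lie beyond the axis). The 8 members that fell lie between -0.24 and -0.40, at a baseMean of 1118 to 6089.

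Levels were compared per kilobase of annotated exon, as baseMean divided by the merged exon length in GENCODE M21, for the 82 matched members. Kcnab2, a cytosolic beta subunit of Kv1 channels, stood highest at 5405 baseMean per kb. Kcna1, the Kv1 pore subunit of axons, followed at 2459 and Kcnip2, a Kv4 calcium sensor, at 2060 baseMean per kb. Kcnk1, a tandem-pore leak subunit, had 1639 baseMean per kb. At the low end Kcnv2, a modifier subunit known from the retina, had 1.27 baseMean per kb, Kcnn4, the intermediate-conductance channel of blood cells, 2.08, and Kcne3, known from epithelia, 4.47. The members that fell had 243 to 1182 baseMean per kb, from Kcns2 to Kcnd2.

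**Figure D2:**
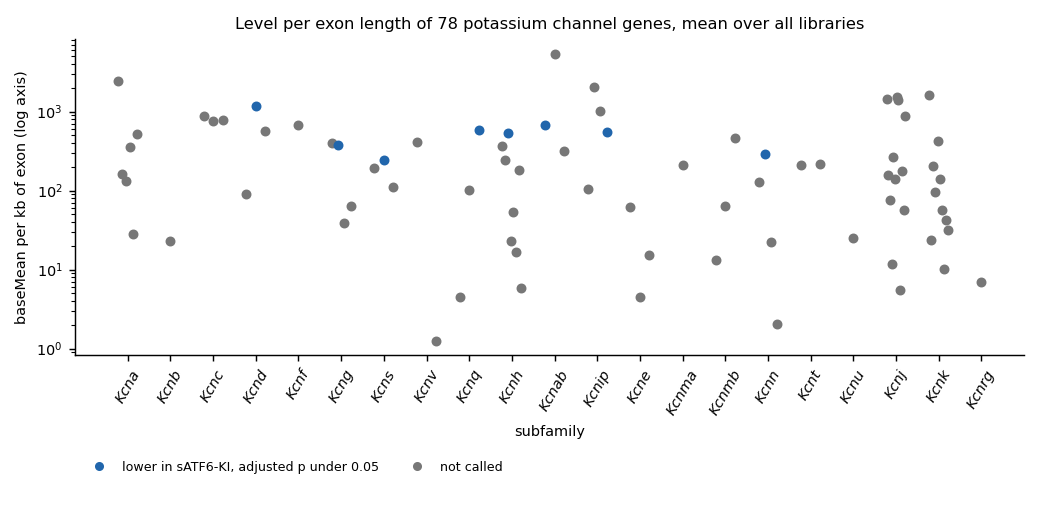
Level of 78 potassium channel genes by subfamily, as baseMean per kilobase of exon on a log axis, each point 1 gene coloured by its call. The genes that fell lie between Kcns2 at 243 and Kcnd2 at 1182, while uncalled genes span the range from Kcnv2 at 1.27 to Kcnab2 at 5405.

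Of the Kv3 subfamily, pore subunits that repolarize fast-firing neurons, Kcnc1, Kcnc2 and Kcnc4 were not called. In the authors' deposited table Kcnc1, at a baseMean of 8343, was at 0.16 ± 0.08 (Wald standard error) on the log2 scale (DESeq2 adjusted p = 0.352), with a 95% Wald interval of 0.995-fold to 1.25-fold. Kcnc2 was at -0.05 ± 0.06, with an interval of 0.891-fold to 1.05-fold, and Kcnc4 at 0.03 ± 0.09, with an interval of 0.906-fold to 1.15-fold, so changes past 1.2-fold lie outside both.

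The selectivity filter, the stretch of the pore that lets potassium through, is coded by a pattern most pore and modifier genes share: AC, 4 bases of any kind, GG, 1 base, TA, 1 base, GG and 1 base, in frame. It was found in the longest coding sequence of 48 of 82 members and in 0.532% of 21812 protein-coding genes. All genes of Kcna, Kcnb, Kcnc, Kcnd, Kcnq, Kcnf, Kcng, Kcns and Kcnv hold it, and no auxiliary subunit of Kcnab, Kcnip, Kcne or Kcnmb does. Among members that fell, the pore gene Kcnd2 and the modifier gene Kcns2 are shown, to set a pore beside a subunit that forms no channel alone. The sequences are 60 coding bases from GENCODE M21 transcripts (GRCm38), 5′ to 3′, and capitals mark the 15 bases of the pattern.
Kcnd2: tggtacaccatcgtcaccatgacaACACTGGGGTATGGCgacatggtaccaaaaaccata
Kcns2: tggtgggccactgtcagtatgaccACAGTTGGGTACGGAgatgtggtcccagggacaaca
The Kcns2 stretch lies at chr15:34839588-34839647 (plus strand) within 1 exon. That of Kcnd2 is split by an intron, its first base at 21217382 and its last at 21714162 on chromosome 6 (plus). Kcnh3, which also fell, does not hold the pattern, nor does any other Kcnh gene. In the 1 transcript searched for each of the 8 members that fell, the one with the longest coding sequence, no 50-base window occurs in a transcript of another gene. The library kit keeps the strand, but the counting's strand setting is unknown here. Where a gene on the other strand overlaps a member, it is therefore unknown whether the counting told reads of the 2 apart. Among the members named here that overlap was largest for Kcna6, 39.6% of exon bases (Gm26673), Kcnmb4, 31.5% (Kcnmb4os1 and Kcnmb4os2), and Kcnj3, 31.1% (Gm26794). Of the members that fell, it is given below for Kcnab1, Kcng2, Kcnip4, Kcnn2 and Kcnq5. Kcnd2 and Kcns2 have no such overlap, and that of Kcnh3, with Mcrs1, rounds to 0.0%.

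The Kv4 channels of the dendritic A-type current are built from Kcnd pores with Kcnip calcium sensors and dipeptidyl peptidase-like proteins. Kcnd2, on chromosome 6 from 21215503 to 21729805, is the main Kv4 pore of pyramidal cells. It was 1.19-fold lower in sATF6-KI by the authors' deposited table, at -0.25 ± 0.07 on the log2 scale (DESeq2 adjusted p = 0.0067). Kcnip4, on chromosome 5 from 48389502 to 49524907, was also 1.19-fold lower by the authors' deposited table, at -0.26 ± 0.08 (DESeq2 adjusted p = 0.0443), the called member nearest to the threshold. The genes 5730480H06Rik and Gm20700 on the other strand overlap 7.4% of its exon bases. The other parts of the complex did not pass in the authors' deposited table. Kcnd3 was at -0.03 ± 0.06 on the log2 scale, and Kcnd1, at a baseMean of 481, was at 0.22 ± 0.12. Kcnip2, the most abundant sensor per kilobase, was at -0.13 ± 0.07, Kcnip1 at 0.07 ± 0.10 and Kcnip3, which also acts as the repressor DREAM, at 0.00 ± 0.08. Among the Kv4 partners Dpp6 was at -0.04 and Dpp10 at 0.19 (log2) by the authors' deposited table, neither called.

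In the Kv1 group the pores and their beta subunits differed in what passed. None of the 6 Kcna genes was called by DESeq2 or had an unadjusted p under 0.05. In the authors' deposited table Kcna1 had a 95% interval of 0.936-fold to 1.11-fold, so changes past 1.2-fold lie outside it. Kcna6, whose reads may include those of its antisense gene, had one of 0.888-fold to 1.10-fold. Kcna2, a further axonal Kv1 pore, had a wide error, 0.19 ± 0.22 on the log2 scale. Kcnab genes encode the cytosolic beta subunits, which bind NADPH and can speed inactivation. Kcnab1, on chromosome 3 from 65109384 to 65378223, was 1.19-fold lower by the authors' deposited table, at -0.25 ± 0.07 (DESeq2 adjusted p = 0.016), and A330015K06Rik on the other strand overlaps 2.3% of its exon bases. Kcnab2, the most abundant member by baseMean and per kilobase, was at -0.15 ± 0.06 (DESeq2 adjusted p = 0.153) and Kcnab3 at -0.18 ± 0.09 (0.306) in the authors' deposited table. Both had an unadjusted p under 0.05, as did 7.59% of all listed genes in the lower direction. With a baseMean of at least 1000, which Kcnab2 has and Kcnab3 does not, 1090 of 7056 genes did. Whether pores and beta subunits differ was not tested.

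Kv2 channels, which cluster on the cell body, include the pore gene Kcnb2, which was not called. Its annotated ID was at -0.12 ± 0.12 (log2) by the authors' deposited table and its unmatched ID at 0.07 ± 0.19. The modifier subunits do not form channels alone but join Kv2 pores and alter their gating. Of 10 modifier genes 2 fell and none rose, where 1.93% of all listed genes fell and 3.41% rose. Both that fell are among the 5 modifier genes with a baseMean of at least 1000, and at that level 4.22% of all listed genes fell. Kcng2, on chromosome 18 from 80294546 to 80364254, had the largest decrease among called members, 1.32-fold, at -0.40 ± 0.11 in the authors' deposited table (DESeq2 adjusted p = 0.00829). D330025C20Rik on the other strand overlaps 9.1% of its exon bases. Kcns2, on chromosome 15 from 34837355 to 34843407, was 1.25-fold lower by the authors' deposited table, at -0.32 ± 0.09 (DESeq2 adjusted p = 0.00908). Kcnv1 was at -0.24 ± 0.09 and missed the threshold (DESeq2 adjusted p = 0.108), while Kcng3, at a baseMean of 132, was at 0.40 ± 0.19 (0.261) in the authors' deposited table. Kcns1 was at 0.07 ± 0.11, and the abundant modifiers Kcnf1 and Kcng1 were at 0.01 ± 0.09 and 0.03 ± 0.09 in the authors' deposited table.

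Kv7 subunits carry the M-current that acetylcholine closes. Kcnq5, on chromosome 1 from 21398403 to 21961942, was 1.21-fold lower in sATF6-KI by the authors' deposited table, at -0.27 ± 0.08 on the log2 scale (DESeq2 adjusted p = 0.0133), and Gm26580 on the other strand overlaps 3.1% of its exon bases. Kcnq3, another M-current subunit, was at -0.09 ± 0.11 in the authors' deposited table and was not called. The ether-a-go-go genes are related in structure but not in the filter pattern above. Kcnh3, the forebrain member, on chromosome 15 from 99224861 to 99242817, was 1.18-fold lower by the authors' deposited table, at -0.24 ± 0.08 (DESeq2 adjusted p = 0.0421). Of the other 7 Kcnh genes none was called by DESeq2 and 1, Kcnh1 at -0.13 ± 0.07, had an unadjusted p under 0.05. Kcnh8, at a baseMean of 26.4, was at 0.20 ± 0.43 in the authors' deposited table.

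Among the calcium-activated and sodium-activated channel genes, Kcnn2 alone was called. Small-conductance channels open when calcium binds their calmodulin. Kcnn2, the small-conductance pore of pyramidal cell spines, on chromosome 18 from 45268860 to 45686024, was 1.19-fold lower in sATF6-KI by the authors' deposited table, at -0.25 ± 0.07 on the log2 scale (DESeq2 adjusted p = 0.0176). A330093E20Rik and AC121957.1 on the other strand overlap 8.1% of its exon bases. Kcnn1 was at -0.23 ± 0.10 (DESeq2 adjusted p = 0.166) and Kcnn3 at 0.03 ± 0.16 in the authors' deposited table. Kcnma1, the pore of the large-conductance channel, had a 95% interval of 0.890-fold to 1.09-fold. Its neuronal beta subunit Kcnmb4 was at -0.16 ± 0.07 (DESeq2 adjusted p = 0.209) and Kcnmb2 at 0.02 ± 0.15 in the authors' deposited table. The sodium-activated pair lay on opposite sides of 0 without passing: Kcnt1 was at 0.31 ± 0.11 (DESeq2 adjusted p = 0.0672), the member nearest above the threshold, and Kcnt2 at -0.19 ± 0.07 (0.113) in the authors' deposited table. Kcnu1, known as a sperm channel, was at -0.05 ± 0.23.

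The inward rectifiers and the tandem-pore channels set resting conductance, and neither subfamily held a call. Of 12 Kcnj genes none was called by DESeq2 or had an unadjusted p under 0.05, with values from -0.27 for Kcnj14 to 0.25 for Kcnj12 (log2) by the authors' deposited table. Of the 50-base windows of the Kcnj14 transcript searched, 31.2% occur in a transcript of another gene, mainly Gm5522. Kcnj3, a pore of the G protein-gated channel, was at -0.04 ± 0.06, and its partners Kcnj6 and Kcnj9 were at -0.07 ± 0.10 and 0.15 ± 0.09. Kcnj10, the potassium buffering channel of astrocytes, was at 0.11 ± 0.20 in the authors' deposited table. None of the 10 Kcnk genes was called by DESeq2 or had an unadjusted p under 0.05. Kcnk1 was at -0.03 ± 0.07, Kcnk12, a silent subunit, at -0.05 ± 0.11, and Kcnk5, at a baseMean of 34.5, at 0.45 ± 0.41 in the authors' deposited table. The 95% interval stayed within 1.2-fold either way for 3 Kcnj and 4 Kcnk genes. For the other 9 and 6 the interval reached past 1.2-fold, so a change of that size is not excluded.

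**Figure D3:**
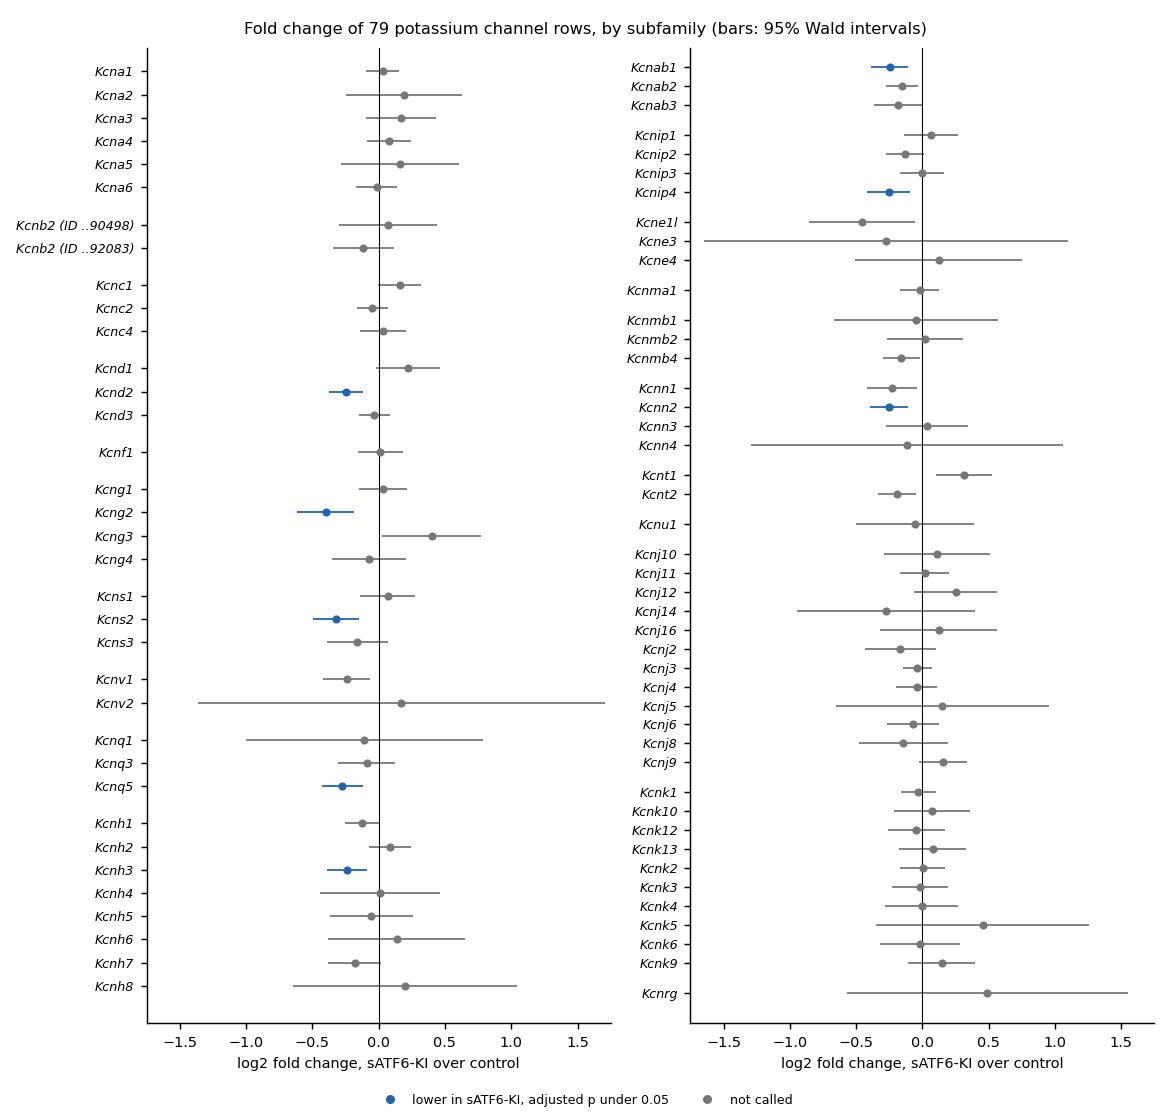
Log2 fold change, sATF6-KI over control, for 79 rows of the authors' deposited table, grouped by subfamily, with 95% Wald intervals. The 8 members that fell lie to the left of 0, and the widest bars belong to members of low level such as Kcnv2 with an error of 0.78.

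The remaining auxiliary gene group, Kcne, encodes membrane subunits of low level here. Kcne1l had the lowest fold change of all members, -0.46 ± 0.20 on the log2 scale at a baseMean of 96.8, and was not called (DESeq2 adjusted p = 0.214 in the authors' deposited table). Kcne4 was at 0.12 ± 0.32 and Kcne3 at -0.27 ± 0.70. Kcnrg, which hinders assembly of Kv tetramers, was at 0.49 ± 0.54 at a baseMean of 12.9 in the authors' deposited table. By role, the median log2 fold change was 0.00 for 59 pore rows, -0.03 for 10 modifier genes and -0.15 for 13 auxiliary genes, against 0.00 for all listed genes. The pore rows are of 58 genes, since Kcnb2 has 2 IDs. Below 0 were 30 of the pore rows, 5 of the modifier genes and 10 of the auxiliary genes, against 48.7% of all listed genes. Of all listed genes with a baseMean of at least 1000, 62.57% were below 0. That level was reached by 30 pore, 5 modifier and 6 auxiliary genes. These medians are descriptions, and no difference between roles was tested.

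Genes that work with potassium channels were followed from a list of 51, of which 49 were listed. Of these, 4 fell and 0 rose per the authors' table as deposited, with 3 higher at an unadjusted p under 0.05 in DESeq2. The 4 are 8.16% of the list, against the 1.93% of all listed genes that fell. A baseMean of at least 1000 was reached by 39 of the 49, these 4 included, and at that level 4.22% of all listed genes fell. The list's median log2 fold change was 0.00. Hcn2, a pacemaker channel of the same voltage-gated superfamily, was 1.21-fold lower by the authors' deposited table, at -0.28 ± 0.06 (DESeq2 adjusted p = 0.000226). Calm3, a calmodulin gene, was 1.23-fold lower at -0.30 ± 0.07 (DESeq2 adjusted p = 0.00108) in the authors' deposited table. Dlg4, the PSD-95 scaffold that binds Kv1 pores, was at -0.18 ± 0.06 (0.0313) and Tmem38a, a trimeric cation channel of the ER, at -0.23 ± 0.07 (0.0318). A further 6 partners had an unadjusted p under 0.05 without being called. In the authors' deposited table Calm2 was at -0.17 ± 0.07, Gnb5, a G protein subunit that acts on Kcnj channels, at -0.17 ± 0.08, and Dlg3 at -0.12 ± 0.06. Slc12a7, a potassium-chloride cotransporter, was at 0.38 ± 0.13, Ank3, the anchor of Kv7 channels at the axon initial segment, at 0.20 ± 0.09, and Hcn4 at 0.56 ± 0.27 in the authors' deposited table. None of the 9 genes of the sodium-potassium pump was called by DESeq2 or had an unadjusted p under 0.05.

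Markers of 9 cell types or tissues were read in the same comparison. For scale, the 7056 genes whose baseMean is 1000 or more had a median of -0.04 (log2). Among them 4.22% fell and 4.04% rose. An unadjusted p below 0.05 went with a decrease in 1090 of them and with an increase in 589. This level was reached by 11 glutamatergic neuron, 8 astrocyte, 9 oligodendrocyte and 7 choroid plexus markers. Of 12 glutamatergic neuron markers 2 fell and 6, those included, had an unadjusted p under 0.05 on the lower side in the authors' deposited table: Itpka fell by 0.49 and Fibcd1 by 0.24 (log2), and the list had a median of -0.13. Astrocyte markers had a median of -0.16 with 1 of 8 lower, oligodendrocyte markers -0.13 with none of 9 called by DESeq2 and 4 lower at an unadjusted p under 0.05, and microglia markers -0.05 with 1 of 6 lower. The 10 GABAergic interneuron markers, a cell class rich in Kv3 channels, had a median of 0.03, and none was called by DESeq2 or had an unadjusted p under 0.05. Of 10 choroid plexus markers 9 rose, with a median of 0.49 and values from 0.35 for Folr1 to 1.07 for Tmem72 (log2) by the authors' deposited table. Blood vessel markers (endothelial and mural) had a median of 0.15 with 1 of 8 higher, thalamus markers 0.13 with none of 7 rows called by DESeq2 and 1 higher at an unadjusted p under 0.05, and the 3 listed of 5 blood markers -0.10 with none called by DESeq2 or under an unadjusted p of 0.05. The part of these shifts in the channel values was not tested.

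**Figure D4:**
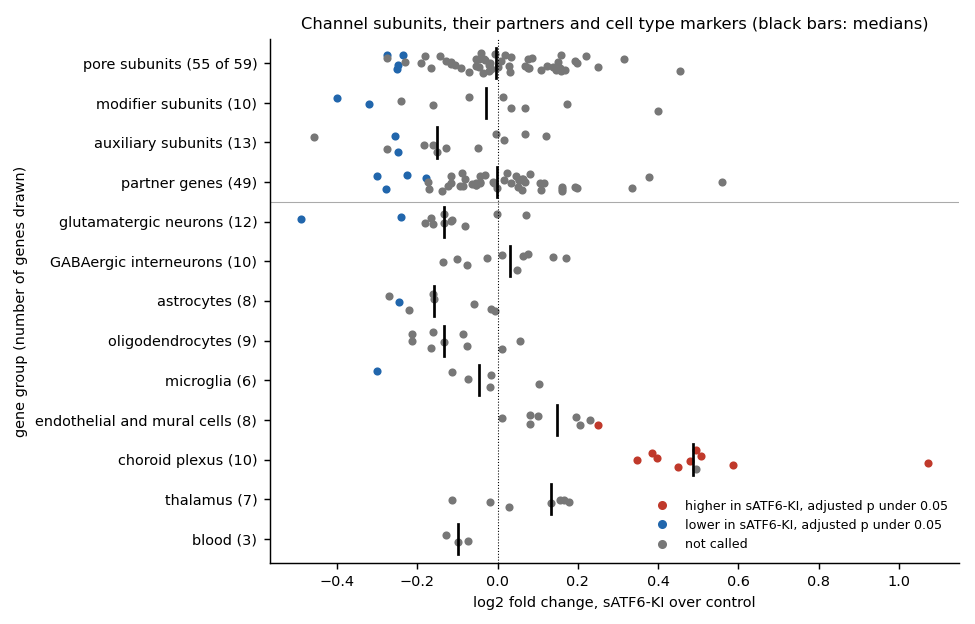
Log2 fold change, sATF6-KI over control, of pore, modifier and auxiliary subunit genes, their partners and markers of 9 cell types or tissues. Each point is 1 row of the authors' deposited table, coloured by its call (55 of the 59 pore rows are drawn). Black bars are medians over each whole group. The auxiliary median is -0.15, those of astrocyte, glutamatergic neuron and oligodendrocyte markers are -0.16, -0.13 and -0.13, and the choroid plexus markers lie apart at 0.49.

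Promoter sequences were searched for the sites through which ATF6 is known to act, in RefSeq windows of 250 bases before to 50 after a start (GRCm38.p6). The table matched 58 of the 82 member names with 82 windows. Kcng2, Kcnh3, Kcnn2 and Kcns2 had no entry. The ER stress element (CCAAT, 9 bases of any kind, CCACG) and its second form (ATTGG, 1 base, CCACG), searched on both strands, occurred in none of the 82 windows, and in 0.119% and 0.0365% of all 32851 windows. The ATF6 site TGACGTG occurred in 2 of the 82 windows, 2.44%, against 2.01% of all windows. These were Kcnab2, at chr4:152477500-152477799 (minus strand), and Kcna6, at chr6:126740625-126740924 (minus strand). They are shown because they alone among the 82 hold the site, in capitals, on the strand opposite to the gene.
Kcnab2: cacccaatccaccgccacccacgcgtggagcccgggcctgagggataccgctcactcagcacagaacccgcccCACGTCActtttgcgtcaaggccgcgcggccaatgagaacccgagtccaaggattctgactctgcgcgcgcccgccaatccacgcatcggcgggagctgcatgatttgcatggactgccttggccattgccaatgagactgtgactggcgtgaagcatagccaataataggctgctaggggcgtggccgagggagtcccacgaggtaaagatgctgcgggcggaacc
Kcna6: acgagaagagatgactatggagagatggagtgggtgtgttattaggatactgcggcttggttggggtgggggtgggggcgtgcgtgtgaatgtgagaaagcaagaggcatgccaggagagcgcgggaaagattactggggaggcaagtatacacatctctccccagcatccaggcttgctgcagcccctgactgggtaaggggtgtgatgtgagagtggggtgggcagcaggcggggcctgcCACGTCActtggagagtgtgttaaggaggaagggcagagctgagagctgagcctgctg
Neither gene was called: Kcnab2 was at -0.15 ± 0.06 and Kcna6 at -0.02 ± 0.08 (log2) by the authors' deposited table. None of the windows of Kcnab1, Kcnd2, Kcnip4 or Kcnq5, which fell, holds any of the 3 motifs, which says only that these letters are not in these windows.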

How the data were processed

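Libraries were made from hippocampal RNA, extracted with Trizol and treated with DNase, with KAPA's stranded kit for messenger RNA, per the labels' protocols. Trim Galore and cutadapt, the aligner STAR, the counter HTSeq and DESeq2 are named in the submitters' processing notes. Versions, genome build, annotation, strand setting and gene filter are not given in those sources. As a whole the authors' deposited table gives, per the file headers, baseMean (a mean normalized expression signal), a log2 fold change of sATF6-KI over control, a Wald statistic (a score with no fixed range), and a p-value with its adjusted form. Another 6 columns of values per library match no sample label and were used in no step, so the planned fits on values per sample were not run.

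The deposited p was checked against a normal p computed from the Wald statistic (largest difference 2.89e-15), and the adjusted p against a Benjamini-Hochberg adjustment (3.89e-15). The deposited standard error, also a score, followed from the Wald error with 1 prior precision within 2% for 98.4% of genes, as for a shrunken fold change, so each printed standard error is the ratio of log2 fold change to Wald statistic instead. Intervals are 95% Wald intervals. The precision of every value is that of the authors' test. Each p-value sets a fold change against its Wald error, from a test with 3 samples a group.

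Gene positions and exon lengths came from GENCODE M21 by gene ID, with 17166 of 17385 IDs and 82 of 83 members matched. Members were named where they passed the threshold, had an unadjusted p under 0.05, were among the 3 nearest to the threshold on either side, or had the highest baseMean or an extreme fold change in their subfamily. Some members that meet this rule are not reported here by name and are left out of the points drawn, but stay in every count and median. Others were named to complete a subfamily or complex, after their values were seen. Partner genes were named where their unadjusted p was under 0.05. Members, gene lists and tests were chosen with earlier results of these data known. Python 3.11.15 was used with pandas 2.3.3, numpy 2.4.6, scipy 1.17.1, biopython 1.88 and matplotlib 3.10.9.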

Additional observations from a re-analysis of the deposited data

How the results depend on the processing

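No paired analysis was possible because the library columns could not be matched to labelled samples, and for the same reason fits on counts or normalized values, other normalizations and pseudocounts, and fits without single replicates were not run. The 9 members called, 1 higher and 8 lower, became 4 (1 and 3) at an adjusted p under 0.01, where 514 of all 17385 listed genes passed, 135 lower, and 4 (1 and 3) with a fold change of at least 1.2, where 670 passed, 133 lower. By Bonferroni 1 was left, with 0 lower, of 268 genes, 34 lower. With a fold change of at least 1.5 there were 0, 0 higher and 0 lower, of 217 genes, 11 lower. Without a fold limit, an unadjusted DESeq2 p under 0.05 was met by 3 members on the higher and 16 on the lower side. Of all listed genes 8.2% and 7.59% met it. At an adjusted p under 0.1, and among genes with a baseMean of at least 1000 (chosen after seeing the data), Kcnt1 was added, so 2 were higher, and all 9 kept their call, where 1281 of 17385 genes (529 lower) and 706 of 7056 (383 lower) passed. Those 9 were also called with a baseMean of at least 10 (946 of 16368 genes) and among protein-coding genes alone (941 of 15508). The 4 partners called, all lower, were 2 at an adjusted p under 0.01 (both lower), 0 by Bonferroni (0 lower), and gained 1 higher at 0.1. All of these alter the threshold or the genes adjusted over, and leave each fold change as it is. With a baseMean of at least 100 the median log2 fold change moved most for Kcnv, from -0.03 to -0.24, where 1 member was left. That of Kcnh moved from -0.02 to -0.13, and the other subfamily medians moved less. Kcne, Kcnu and Kcnrg have no member at that level.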

Other observations

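Of 41 members with a baseMean of at least 1000, 3 had a Wald error above 0.2, 7.32%, against 0.808% of all listed genes at that level, and they are named after their values were seen: Kcna2, an axonal Kv1 pore, Kcnj10, the astrocyte inward rectifier, and Kcnj16, its partner subunit. Their log2 fold changes were 0.19 ± 0.22, 0.11 ± 0.20 and 0.12 ± 0.23 in the authors' deposited table. Without values per library it cannot be said which mice differ.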
